A study of Rattus norvegicus with 12 samples.

Results

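The NRF2 and antioxidant genes described here are 10 of the 30562 genes in the count table: 7 well-known targets of the transcription factor NRF2 (Hmox1, Nqo1, Gclc, Gclm, Txnrd1, Slc7a11 and Srxn1) and 3 classical antioxidant enzymes (Sod1, Sod2 and Cat). They were selected by gene symbol, and each symbol matched 1 row. RNA was sequenced in bulk from primary oligodendrocyte precursor cells (OPCs) of wild-type Sprague-Dawley rats, prepared from cerebral cortices at postnatal day 1 or 2. The mild-hypo-OPCs (6 libraries) were kept at an inspired oxygen fraction (FiO2) of 5%, and the standard OPCs (6 libraries) are labelled as kept in room air. The exposure is 6 hours in the sample labels and 6 days in the methods of the study, and the comparison addresses how OPC transcription differs between these oxygen levels. Both groups shared the genotype (WT), the shaking-based isolation and a medium with FGF-2, PDGF-AA and B27, a supplement that itself contains antioxidants.

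NRF2 (encoded by Nfe2l2) is held in the cytoplasm by KEAP1, which directs it to degradation. Oxidants or electrophiles modify KEAP1, and NRF2 then accumulates, pairs with small MAF proteins and binds antioxidant response elements in genes for glutathione synthesis, thioredoxin reduction and quinone or heme metabolism. OPCs are known as a cell type with high iron content and modest glutathione reserves, which makes this system of interest in the oligodendrocyte lineage.

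The element itself was looked for in the promoters of these genes, as a description of their sequence. RefSeq promoter windows (GRCr8, 250 bases before to 50 after the gene start) were given for 9 of the 10 genes, the exception being Hmox1. The core TGACNNNGC, searched on both strands, was present in Txnrd1, Gclm and Sod2, and in 12.06% of 33469 windows. An AP-1 site, TGACTCA, which can overlap that core, was present in Srxn1 and in 4.63% of windows. The hypoxia response element core was searched in 2 forms: ACGTG occurred in Sod1 and in 19.25% of windows, and GCGTG occurred in Gclc, Nqo1, Sod2, Srxn1 and Txnrd1 and in 29.7% of windows. A match is a string of letters, not a shown binding site, and a window without a match does not show that the gene lacks an element elsewhere. Whether a match goes with the response of a gene was not tested. The 4 stretches below carry the matches of the antioxidant core and of the ACGTG form, in capitals, written 5′ to 3′ on the strand of the gene; the antioxidant core lies on the opposite strand in all 3 genes and therefore reads as its reverse complement.
Txnrd1, chr7:22755943-22756012, minus strand: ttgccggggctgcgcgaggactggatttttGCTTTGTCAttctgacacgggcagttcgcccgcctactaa
Gclm, chr2:213031933-213032002, plus strand: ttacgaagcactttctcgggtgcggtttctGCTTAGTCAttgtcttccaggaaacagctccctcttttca
Sod2, chr1:50050169-50050238, minus strand: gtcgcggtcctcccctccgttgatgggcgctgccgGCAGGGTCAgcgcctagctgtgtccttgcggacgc
Sod1, chr11:42942670-42942739, plus strand: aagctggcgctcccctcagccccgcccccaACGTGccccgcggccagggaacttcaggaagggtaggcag
The matches began 78, 172, 35 and 123 bases upstream of the gene start, in that order.

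Depth differed with the condition. The 6 mild-hypo-OPC libraries held 4111669 to 9022324 counts and the 6 standard OPC libraries 1356079 to 2797513, so that the effect of depth and that of oxygen cannot be told apart. The share of ribosomal RNA was 17.4% to 25.25% with mild hypoxia and 23.87% to 38.42% without. Levels are given as CPM (counts scaled to a common library total) after TMM scaling, in which each library is scaled by a factor that centres most genes. All 7 OPC markers (Pdgfra, Cspg4, Sox10, Olig2, Olig1, Ptprz1 and Gpr17) were detected, with a summed level of 3726 to 4326 CPM in mild-hypo-OPCs and 3083 to 3827 CPM in standard OPCs. The 7 oligodendrocyte markers summed to 12560 to 13830 and 8603 to 12420 CPM, and these sums did not overlap between the groups. In both groups they exceeded the sums of the OPC markers, so the cultures carried oligodendrocyte transcripts as well.

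Of the 10 genes, 8 passed the filter on low counts (a CPM above 10, before TMM scaling, in at least 1 library). Hmox1 and Txnrd1 were higher in mild-hypo-OPCs and Sod1 was lower at an adjusted p under 0.05, and the other 5 did not pass (edgeR's quasi-likelihood test, Benjamini-Hochberg adjustment over 8938 genes). Over all genes tested, 7.0% were called higher and 17.0% lower. Fold changes below are log2 values of mild-hypo-OPCs relative to standard OPCs, with the standard error (SE) implied by the test.

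**Figure D1:**
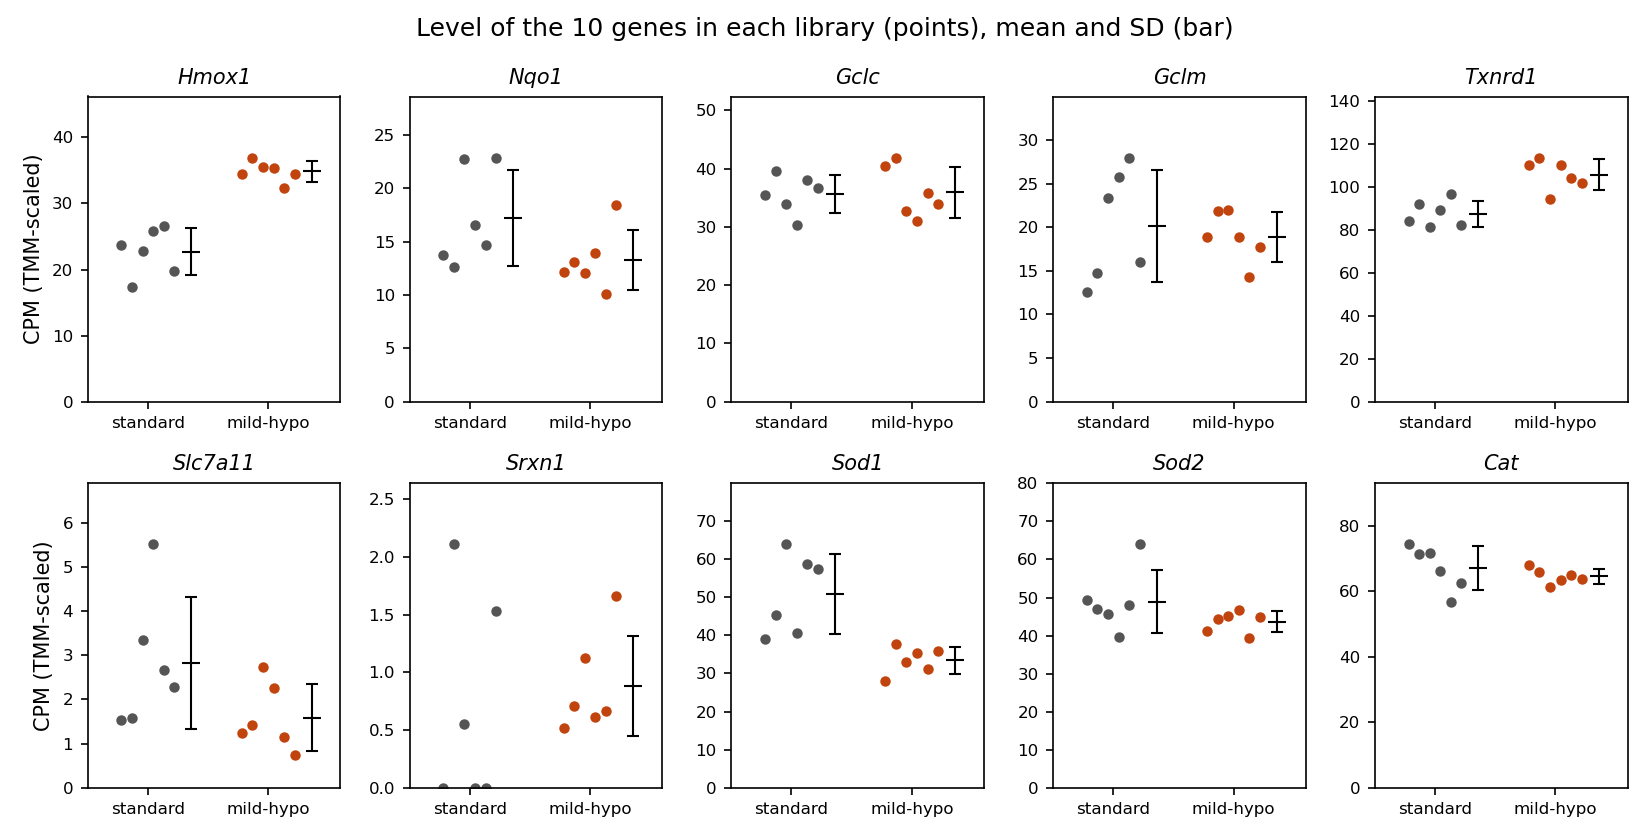
TMM-scaled CPM (y axis, starting at 0) of each of the 10 genes in the 6 standard OPC and 6 mild-hypo-OPC libraries; points are libraries and bars are mean ± SD, left out for Srxn1 in standard OPCs, where 3 libraries had no count. Hmox1 lies higher in all 6 mild-hypo-OPC libraries (32.4 to 37.0 CPM against 17.4 to 26.7) and Sod1 lower (28.0 to 37.7 against 39.0 to 63.95), while the other 8 genes overlap.

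Hmox1 (ENSRNOG00000014117) encodes heme oxygenase 1, which breaks heme down to biliverdin, carbon monoxide and iron, and is induced through NRF2 when the repressor BACH1 is displaced. Its level was 32.4, 35.0 and 37.0 CPM (lowest, median and highest library) in mild-hypo-OPCs and 17.4, 23.3 and 26.7 CPM in standard OPCs. All 6 mild-hypo-OPC libraries were above all 6 standard OPC libraries, a separation found for 2.94% of the genes tested. The mean rose from 22.7 ± 3.52 to 34.9 ± 1.53 CPM (SD, n = 6 each). The log2 fold change was 0.63 (SE 0.11, 95% interval 0.40 to 0.85, adjusted p = 0.000361 with edgeR), a ratio of 1.54. A mild-hypo-OPC library held 173 to 330 Hmox1 counts and a standard OPC library 26 to 62, and the coefficient of variation (4.39% and 15.5%) was no larger than counting error alone gives (6.91% and 16.8%).

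Hmox1 is also expressed by microglia, and microglial transcripts moved with the condition. The summed level of 10 microglia markers was 50.2 to 72.3 CPM with mild hypoxia and 22.1 to 49.1 CPM without, with no overlap. All 10 were detected, and 2 of the 4 that passed the filter, Csf1r and C1qb, were called higher, beside 7.0% of all genes tested. C1qa and C1qc, not called, passed the filter only through mild-hypo-OPCs (highest standard OPC levels of 9.51 and 6.50 CPM). Aif1 and Ptprc, below the filter, had lower means in mild-hypo-OPCs (1.87 against 3.13 CPM and 2.66 against 3.37 CPM). The isolation included steps to remove microglia and astrocytes. The neuron markers (7 genes) also separated in sum, at 238.3 to 260.7 CPM against 172.6 to 216.9 CPM. Of the 5 tested, only Tubb3 was called (means of 98.9 against 59.4 CPM, adjusted p = 0.000181 with edgeR). Rbfox3, below the filter, had a lower mean in mild-hypo-OPCs (2.67 against 3.36 CPM). Of the astrocyte markers, Aqp4 and Slc1a3 were higher and S100b lower, while the astrocyte sum overlapped (842.5 to 986.5 CPM against 780.8 to 901.5 CPM). The part of any of these cells in the Hmox1 difference was not tested. In bulk RNA, more cells of a type and more RNA per cell cannot be told apart.

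Nqo1 (ENSRNOG00000012772), a quinone reductase and one of the most used readouts of NRF2, did not move with Hmox1. It stood at 10.1, 12.7 and 18.4 CPM in mild-hypo-OPCs and 12.7, 15.6 and 22.9 CPM in standard OPCs. Of the 6 mild-hypo-OPC libraries 3 were below the lowest standard OPC library, but the groups overlapped. The log2 fold change was -0.35 (SE 0.18, 95% interval -0.73 to 0.02, adjusted p = 0.164 with edgeR). An increase of Nqo1 above 0.02 on the log2 scale therefore lies outside the interval of this fit, which rests on TMM scaling. Scaling by library size alone gave an interval of -0.28 to 0.44. With the log2 total of each library as a covariate it was -0.73 to 0.77, so an increase was not excluded in those fits.

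Glutathione synthesis is limited by glutamate-cysteine ligase, made of a catalytic (Gclc) and a modifier (Gclm) subunit, and by cystine entering through the exchanger xCT (Slc7a11). Gclc (ENSRNOG00000006302) was at 30.9, 34.9 and 41.9 CPM in mild-hypo-OPCs and 30.4, 36.1 and 39.6 CPM in standard OPCs. Its log2 fold change was 0.01 (SE 0.10, 95% interval -0.21 to 0.23, adjusted p = 0.967 with edgeR). Gclm (ENSRNOG00000013409) was at 14.3, 18.9 and 22.0 CPM and at 12.6, 19.7 and 28.0 CPM. The standard OPC libraries enclosed all 6 mild-hypo-OPC libraries, and the log2 fold change was -0.03 (SE 0.18, 95% interval -0.40 to 0.34, adjusted p = 0.916 with edgeR). The interval of Gclm is the wider of the 2 and covers ratios of 0.756 to 1.26. Gclm was at 0.35 in replicates 1 to 3 alone and at -0.46 in replicates 4 to 6 alone, and passed in neither (adjusted p = 0.364 and 0.153 with edgeR).

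Slc7a11 (ENSRNOG00000010210) and Srxn1 (ENSRNOG00000031167) did not pass the filter. Slc7a11 had 4, 9.5 and 17 counts in mild-hypo-OPCs and 3, 4 and 6 counts in standard OPCs, which scaled to 0.738 to 2.73 and 1.53 to 5.52 CPM. With no filter, over 17391 genes, its log2 fold change was -0.67 (SE 0.42, 95% interval -1.52 to 0.17, adjusted p = 0.319 with edgeR). Srxn1, which encodes sulfiredoxin, the enzyme that repairs over-oxidised peroxiredoxins, had 3, 4.5 and 9 counts in mild-hypo-OPCs and 0, 0.5 and 4 counts in standard OPCs, where 3 libraries were at 0. In 5 of 6 standard OPC libraries the count lay below a floor of 3, and a difference was not detectable at this depth.

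Txnrd1 (ENSRNOG00000009088) encodes the cytosolic thioredoxin reductase, a selenoprotein that returns oxidised thioredoxin to its active form. Its level was 94.2, 107 and 114 CPM in mild-hypo-OPCs and 81.2, 86.7 and 96.6 CPM in standard OPCs. Of the 6 mild-hypo-OPC libraries 5 lay above the highest standard OPC library, and replicate 3, at 94.2 CPM, did not. The log2 fold change was 0.27 (SE 0.08, 95% interval 0.11 to 0.44, adjusted p = 0.0147 with edgeR), a ratio of 1.21. The call was lost when every library was thinned to the smallest total (0.24, adjusted p = 0.0976) and when the trend of fold change on gene span was removed (0.19, adjusted p = 0.0831), both with edgeR. Txnrd1 did not pass either in replicates 1 to 3 alone (0.32, adjusted p = 0.122 with edgeR) or in replicates 4 to 6 alone (0.24, adjusted p = 0.173 with edgeR).

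The superoxide dismutases turn superoxide into hydrogen peroxide, SOD1 in the cytosol with copper and zinc and SOD2 in the mitochondrial matrix with manganese. Sod1 (ENSRNOG00000002115) was at 28.0, 34.1 and 37.7 CPM in mild-hypo-OPCs and 39.0, 51.3 and 63.95 CPM in standard OPCs. All 6 mild-hypo-OPC libraries were below all standard OPC libraries, a separation in this direction found for 5.4% of genes tested. The log2 fold change was -0.60 (SE 0.12, 95% interval -0.86 to -0.34, adjusted p = 0.00164 with edgeR), a ratio of 0.66. Sod2 (ENSRNOG00000019048) was at 39.5, 44.7 and 46.7 CPM and at 39.6, 47.5 and 64.1 CPM. The difference did not pass the test (log2 fold change -0.17, SE 0.10, 95% interval -0.37 to 0.04, adjusted p = 0.237 with edgeR). None of the mild-hypo-OPC libraries (0 of 6) exceeded the standard OPC mean of 48.9 CPM, but standard OPC replicate 6, at 64.1 CPM, raised that mean above the median. Without that replicate the Sod2 log2 fold change was -0.09 (adjusted p = 0.530 with edgeR).

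Catalase (Cat, ENSRNOG00000008364) removes hydrogen peroxide in peroxisomes. It varied least of the 8 tested genes of the group in mild-hypo-OPCs, with a coefficient of variation of 3.62%, and stood at 61.3, 64.4 and 68.1 CPM there and at 56.7, 68.8 and 74.6 CPM in standard OPCs. The mild-hypo-OPC libraries all lay inside the standard OPC range, and the log2 fold change was -0.06 (SE 0.08, 95% interval -0.23 to 0.10, adjusted p = 0.600 with edgeR).

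**Figure D2:**
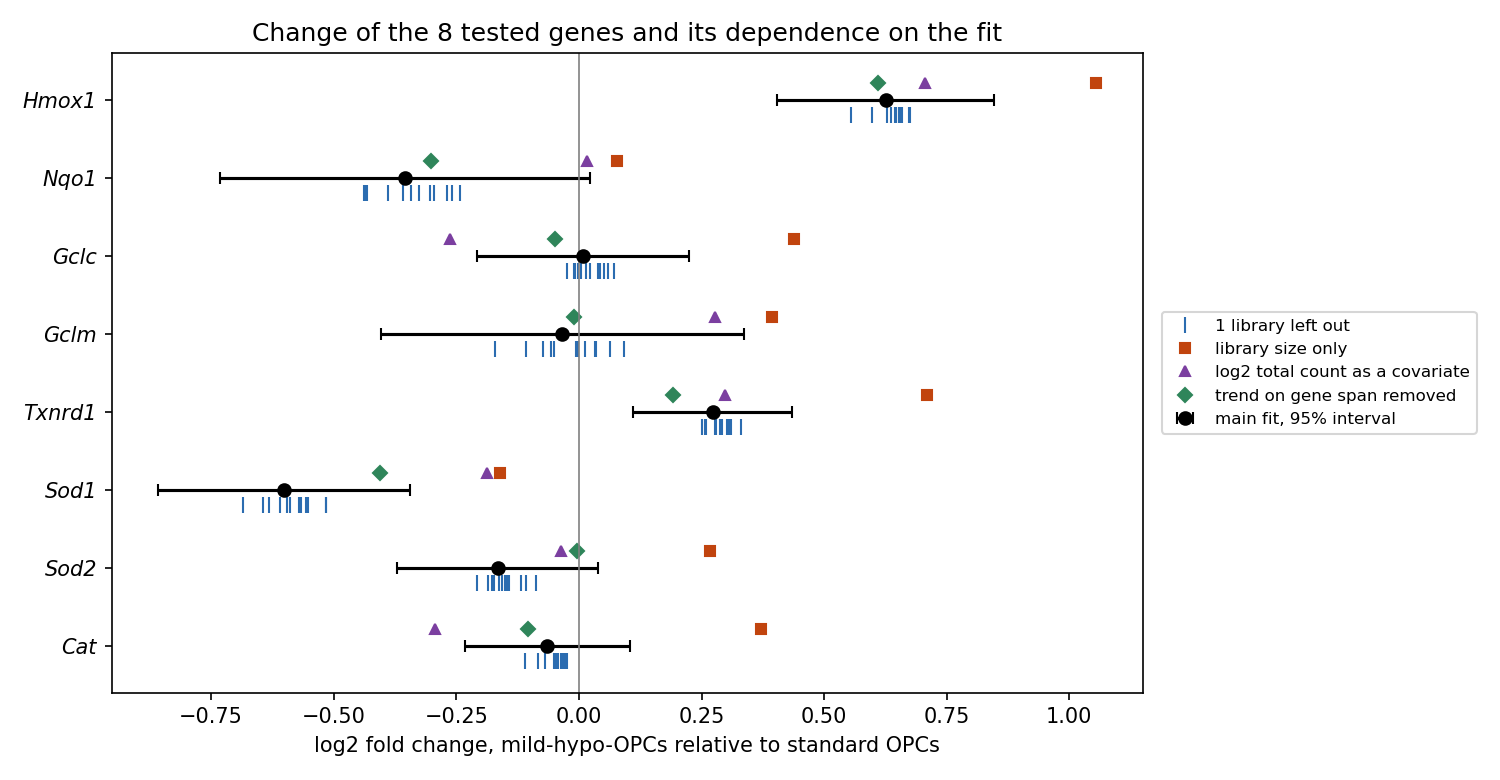
Log2 fold change (x axis) of the 8 tested genes (y axis); black points are edgeR fits with 95% intervals, blue ticks the 12 fits that each leave out 1 library, and the other symbols 3 alternative fits. The intervals of Hmox1 and Txnrd1 lie above 0 and that of Sod1 below, and scaling by library size alone shifts all 8 genes upward, bringing Sod1 to -0.16.

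Hmox1 and Sod1 were called in all 12 fits that left out 1 library, as was Txnrd1. Scaling by library size alone moved the median of all tested genes to 0.43 on the log2 scale, with which Sod1 came to -0.16 (adjusted p = 0.274 with edgeR), or -0.59 relative to that median, and Sod2 to 0.27 (adjusted p = 0.0439 with edgeR). In replicates 1 to 3 alone Sod1 was at -0.56 (adjusted p = 0.0804 with edgeR), and with the log2 total of each library as a covariate, which is tied to the groups, 0 of the 8 genes were called.

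A ratio of 2 genes within a library does not use the scaling factor, and 6 such pairs were compared as log2 ratios of counts with 0.5 added (two-sided exact permutation test over all 924 arrangements of the libraries, Benjamini-Hochberg adjustment over the 6 pairs). The balance of Hmox1 to Nqo1 shifted most clearly. The log2 ratio was 1.41 ± 0.27 in mild-hypo-OPCs and 0.42 ± 0.43 in standard OPCs (SD, n = 6 each), without overlap of the libraries. The difference was 0.99 (exact permutation p = 0.00216, the smallest that these group sizes allow, adjusted p = 0.0130).

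Sod1 was also compared with Sod2 and with Cat, and was lower relative to each. The Sod2 to Sod1 log2 ratio was 0.39 ± 0.11 in mild-hypo-OPCs and -0.04 ± 0.30 in standard OPCs, a difference of 0.43 (exact permutation p = 0.00649, adjusted p = 0.0195). The Cat to Sod1 log2 ratio was 0.95 ± 0.18 and 0.42 ± 0.39, a difference of 0.53 (exact permutation p = 0.0130, adjusted p = 0.0260). Library ranges overlapped in both pairs, through standard OPC replicate 1. The Cat to Sod1 difference no longer passed without mild-hypo-OPC replicate 1, 2, 4, 5 or 6 (0.47, 0.56, 0.55, 0.51 and 0.56), and the Sod2 to Sod1 difference no longer passed without mild-hypo-OPC replicate 1 or 4 (0.40 and 0.43). The other 3 pairs did not pass: Slc7a11 to Gclc differed by -0.89 (exact permutation p = 0.0606, adjusted p = 0.0909), Gclm to Gclc by -0.05 (exact permutation p = 0.836) and Srxn1 to Txnrd1 by 0.10 (exact permutation p = 0.874). The last of these depends on depth through the added 0.5, since 3 standard OPC libraries had no Srxn1 count, and it turned to -0.40 with 1 added.

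**Figure D3:**
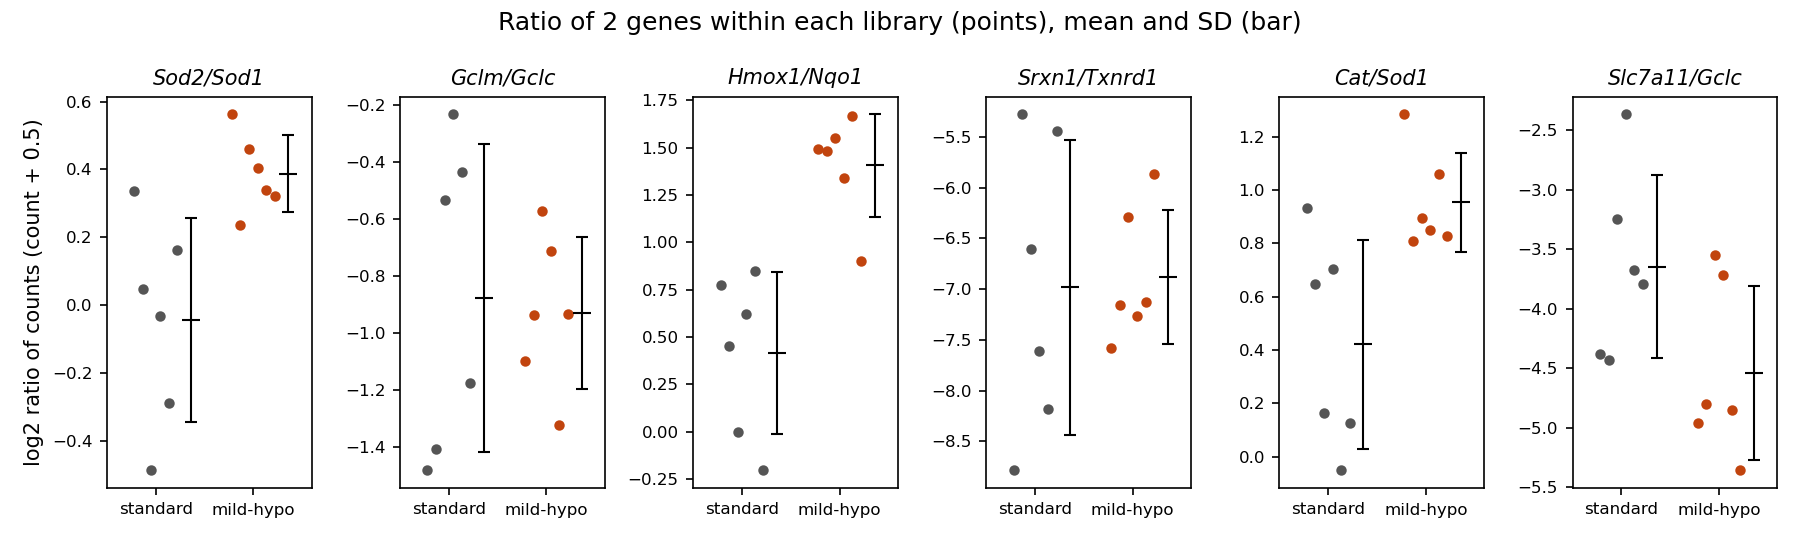
Log2 ratio of counts (count + 0.5) of 6 gene pairs within each of the 12 libraries (y axes differ and do not start at 0); points are libraries and bars are mean ± SD. The Hmox1 to Nqo1 ratio is 0.90 to 1.67 with mild hypoxia and -0.20 to 0.85 without, and the other pairs overlap.

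The wider pathway was read from 5 further lists, 84 genes in all, of which 61 were tested. The machinery that controls NRF2 was not among the called genes of the main fit. Of 9 tested regulators 0 were called with edgeR, DESeq2 or limma-voom, beside 7.0% of all genes tested called higher and 17.0% lower with edgeR. Among them 1, Rbx1 of the KEAP1 ubiquitin ligase, had an unadjusted p under 0.05 (log2 fold change -0.33, adjusted p = 0.0732 with edgeR). Nfe2l2, encoding NRF2 itself, was at 5.90, 7.67 and 9.91 CPM in mild-hypo-OPCs and 2.76, 7.96 and 9.94 CPM in standard OPCs (log2 fold change 0.14, adjusted p = 0.724 with edgeR). Keap1, its inhibitor, had a log2 fold change of -0.07 (adjusted p = 0.687) and Bach1, the repressor of Hmox1, of 0.10 (adjusted p = 0.730), both with edgeR. With library size only, Keap1 came to 0.37 (adjusted p = 0.0121) and Bach1 to 0.53 (adjusted p = 0.0204), both with edgeR. The median of all tested genes was then 0.43. NRF2 is controlled mainly at the protein level, which these data do not measure.

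Of the other NRF2 targets, 22 of 25 matched a symbol and 17 were tested, of which 1 was called higher and 5 lower (1 lower with library size only), or 5.88% and 29.41% beside 7.0% and 17.0% of all genes tested. The median log2 fold change was -0.01, beside -0.003 over all genes. Abcc4, an exporter of organic anions, rose from 12.7, 13.9 and 18.7 CPM to 20.5, 22.1 and 25.7 CPM (log2 fold change 0.53, adjusted p = 0.00562 with edgeR); the call was lost when libraries were thinned to the smallest total (0.45, adjusted p = 0.0755 with edgeR) and in replicates 1 to 3 alone (0.44, adjusted p = 0.185 with edgeR). Gstp1, a glutathione transferase and a marker of the oligodendrocyte lineage, fell by 0.86 on the log2 scale (adjusted p = 0.000269 with edgeR), with no overlap between groups. Of the biliverdin reductases, which act on the product of heme oxygenase, Blvra fell (log2 fold change -0.64, adjusted p = 0.00915 with edgeR), and Blvrb had a log2 fold change of 0.02 (adjusted p = 0.977 with edgeR). Fth1, the ferritin heavy chain that stores iron, had one of -0.41 (adjusted p = 0.00545), and Taldo1, of the pentose phosphate pathway, one of -0.37 (adjusted p = 0.0133), both with edgeR; the Taldo1 call was lost without mild-hypo-OPC replicate 1 (-0.28, adjusted p = 0.0543 with edgeR). With the trend on gene span removed, as described with the span values, Fth1 came to -0.045 and was no longer called (adjusted p = 0.674 with edgeR).

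Glutathione enzymes were called in 1 direction. Of 15 tested, 0 were called higher (0 also at an unadjusted p under 0.05, with edgeR, DESeq2 and limma-voom) and 7 lower (46.67%, beside 17.0% of all genes tested), with a median log2 fold change of -0.52; 1 was called lower with library size only and 1 in replicates 1 to 3 alone. The largest decreases were in the glutathione peroxidases: Gpx4, which reduces lipid peroxides in membranes, went from 312, 599 and 710 CPM in standard OPCs to 157, 216 and 285 CPM in mild-hypo-OPCs, with no overlap (log2 fold change -1.32, SE 0.19, adjusted p = 0.000146 with edgeR). Gpx8 had a log2 fold change of -0.72 (adjusted p = 0.00599) and Gpx1 of -0.68 (adjusted p = 0.00245), as did the glutaredoxin Glrx5, active in iron-sulfur cluster assembly, at -0.60 (adjusted p = 0.00343), all with edgeR. Gpx3 went the other way without being called (log2 fold change 0.22, adjusted p = 0.159 with edgeR). The Glrx5 call was lost when libraries were thinned to the smallest total (-0.45, adjusted p = 0.056 with edgeR). Gpx1, Gpx4 and Gpx8 are among the shortest genes, of which 37.24% were called lower. With the trend on gene span removed, Gpx1 came to -0.17 and was no longer called (adjusted p = 0.204 with edgeR).

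Thioredoxin and peroxiredoxin genes had 1 of 15 tested called higher and 9 lower (6.67% and 60%, beside 7.0% and 17.0% of all genes tested), with a median log2 fold change of -0.40; 2 were called lower with library size only and 3 in replicates 1 to 3 alone. Txn1, the substrate of the reductase encoded by Txnrd1, went from 48.1, 83.0 and 102 CPM to 33.2, 36.4 and 44.4 CPM (log2 fold change -1.01, SE 0.16, adjusted p = 0.000234 with edgeR). The methionine sulfoxide reductases Msra (-0.86, adjusted p = 0.00183) and Msrb1 (-0.83, adjusted p = 0.000274) and the peroxiredoxin Prdx5 (-0.66, adjusted p = 0.000882) fell without overlap (log2 fold changes, edgeR). Txnip, which binds and inhibits thioredoxin and responds to glucose, rose by a log2 fold change of 0.99 (adjusted p = 0.00300 with edgeR). Its highest level was 11.6 CPM in mild-hypo-OPCs and 8.28 CPM in standard OPCs, so it passed the filter only through mild-hypo-OPCs.

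Among 5 tested superoxide and peroxide genes, Ucp2, a mitochondrial carrier, was higher (log2 fold change 0.96, adjusted p = 0.0241) and Park7, a redox-sensitive chaperone also called DJ-1, was lower (-0.69, adjusted p = 0.000307), both with edgeR. The Ucp2 call was lost without standard OPC replicate 3 (0.92, adjusted p = 0.0551) or replicate 5 (0.82, adjusted p = 0.0636), both with edgeR. It was lost as well with limma-voom (0.92, adjusted p = 0.0549), and with edgeR when libraries were thinned (1.10, adjusted p = 0.0505) or in replicates 1 to 3 alone (0.76, adjusted p = 0.304). Over the 5 lists together, 3 of 61 tested genes were called higher and 22 lower, or 4.92% and 36.07% beside 7.0% and 17.0% of all genes tested. Txnip and Ucp2, both among the genes called higher, passed the filter only through mild-hypo-OPCs. For Ucp2 this rested on mild-hypo-OPC replicate 3, at 9.47 CPM after TMM scaling. Its highest standard OPC level was 5.35 CPM. Removing that replicate took Ucp2 below the filter, so it was not tested there and has 11 leave-one-out results. Of the genes named from these lists, Blvra, Fth1, Taldo1, Gpx8, Gpx1, Glrx5 and Txn1 also lost their call in replicates 1 to 3 alone, and Txnip and Msra in replicates 4 to 6 alone (edgeR). With library size only, Blvra, Fth1, Taldo1, Gpx8, Gpx1, Glrx5, Msra, Prdx5 and Park7 were not called, and Fth1 and Taldo1 changed sign, to 0.0298 and 0.074.

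**Figure D4:**
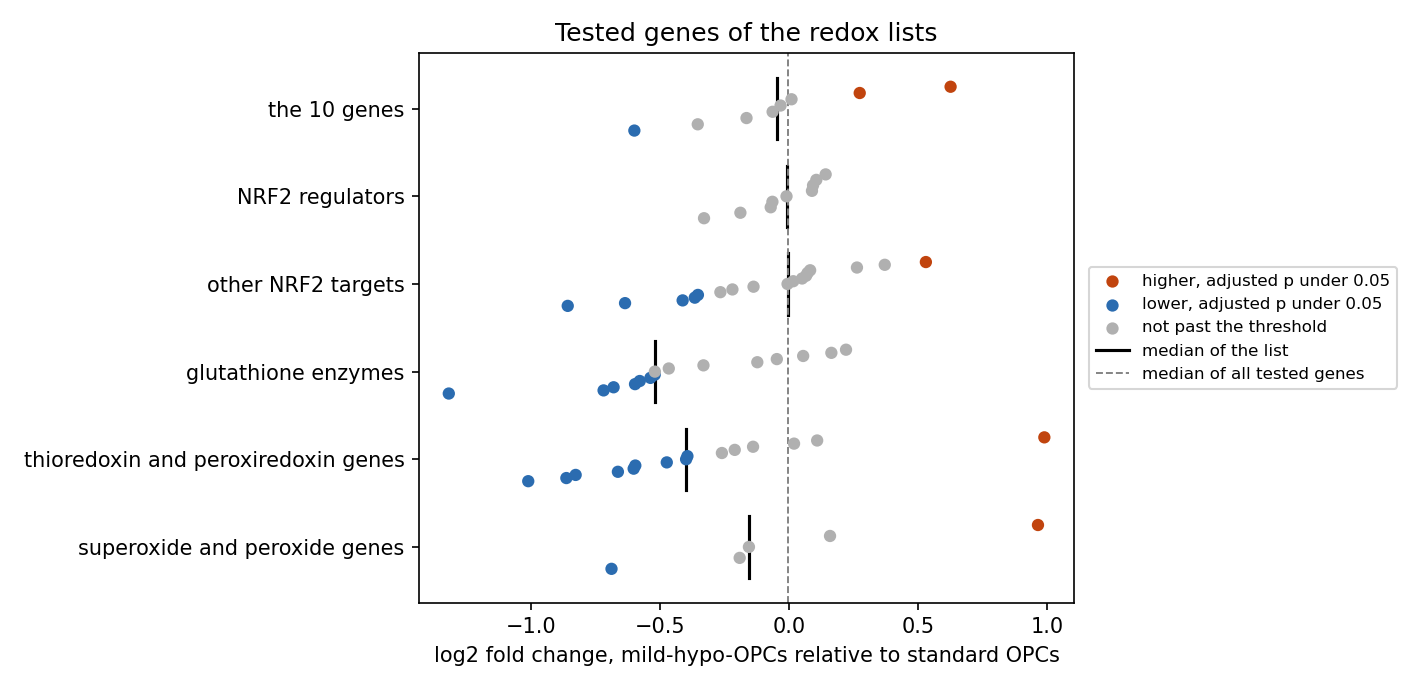
Log2 fold change (x axis) of each tested gene in the 10-gene group and the 5 further lists (rows); red points are called higher, blue lower and grey not called, black bars are list medians and the dashed line is the median of all 8938 tested genes. Regulators have no called gene, and glutathione and thioredoxin genes lie mostly below 0, with medians of -0.52 and -0.40.

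Short genes were lower as a class in this comparison, and this moved with the results above. The tested genes with a RefSeq span (95.55% of them) were put in 5 equal bins by span. The shortest bin (257 to 8498 bases) had a median log2 fold change of -0.26 with 37.24% called lower, and the longest bin a median of 0.06 with 5.56% called lower. Sod1 (5658 bases) and Sod2 (6846 bases) lie in the shortest bin and Txnrd1 in the longest. With the trend on span removed, a fit chosen after the data were seen, Sod1 remained lower (-0.41, adjusted p = 0.00794 with edgeR) and Hmox1 higher (0.61, adjusted p = 0.000372 with edgeR), whereas Sod2 came to -0.005. The source of the trend was not tested.

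**Figure D5:**
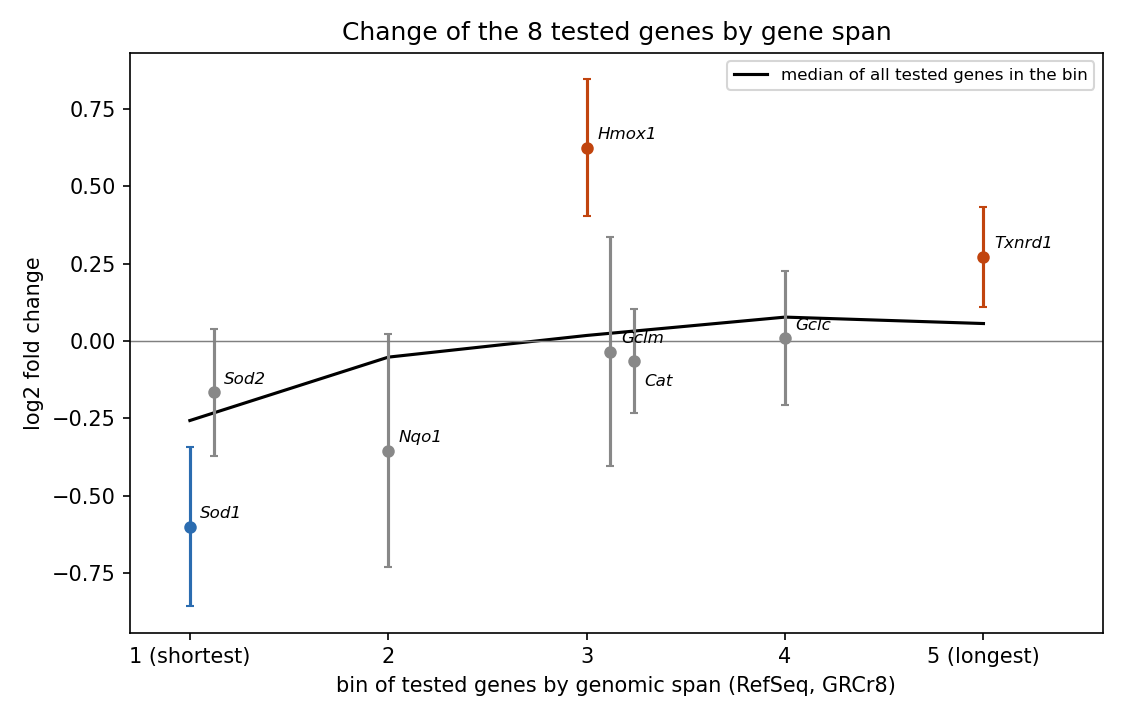
Log2 fold change (y axis) of the 8 tested genes by bin of gene span (x axis, 5 equal bins from shortest to longest), with 95% intervals; the black line is the median of all tested genes in each bin, from -0.26 in the shortest to 0.06 in the longest. Sod1 lies below the median of its bin and Hmox1 above that of its own, while the interval of Sod2 encloses the median of the shortest bin.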

How the data were processed

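The authors prepared strand-specific libraries from total RNA. Per the submitters' processing notes, reads were handled with Trimmomatic 0.36, FastQC 0.11.9, STAR 2.7.9a and RSEM 1.3.3 on mRatBN7.2; how the estimates became whole numbers is not given in the sources used here. The deposited table gives unnormalized counts, all whole numbers, for each Ensembl gene, with 0 columns unused. Groups and replicate numbers came from the labels. The labels name no separate cultures and the study's legend gives n = 3 per group, so p-values measure only the spread between these 6 and 6 libraries. No library repeated another (chi-square per degree of freedom over 3 in every pair).

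Genes with CPM above 10, before TMM scaling, in at least 1 library (8938) were tested with glmQLFit and glmQLFTest in edgeR 4.0.16 (R 4.3.3), TMM factors of 0.809 to 1.23, and adjustment at 0.05. Ratios used SciPy. Alternatives used limma 3.58.1 (voom) and DESeq2, other scalings, filters and subsets, a replicate block, log2 total count as a covariate, thinning and, chosen after seeing the data, removal of the span trend. The fits were tried on simulated counts in which as many genes rose as fell and no trend on span was added, unlike in these data. The ratio test was tried on random values. Members and lists were chosen with earlier results of these data known. Named genes were all 10 members, Nfe2l2, Keap1, Bach1 and, per list, up to 4 called genes in each direction with the largest change. Genes such as Fth1, Gpx4 and Prdx1 have processed copies that can share reads, and this split was not tested. Spans and promoter windows are from RefSeq GRCr8, matched by symbol. Standard errors, also that of Slc7a11, come from the edgeR fits and include the spread between libraries. The counting error given for Hmox1 covers counting alone.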

Additional observations from a re-analysis of the deposited data

Results flagged for a closer look

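In 3 of 70 groups of 6 libraries, 1 library lay far from the other 5 by Dixon's gap criterion at 95%, and chance gives about 5% of groups. Ucp2 reached 9.47 CPM in 1 mild-hypo-OPC library, Bach1 reached 18.1 CPM in 1 mild-hypo-OPC library, and Keap1 was at 25.6 CPM in 1 standard OPC library. None of the 10 genes had such a library in either group.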

How the results depend on the processing

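Limits come first. The groups differ in depth without overlap, and with the log2 total of each library as a covariate 43 genes were called (705 at an unadjusted p under 0.05), none of them among the 10 genes: Hmox1 kept a log2 fold change of 0.71 (adjusted p = 0.218) and Sod1 came to -0.19 (adjusted p = 0.934), both with edgeR. Slc7a11 and Srxn1 are limited by counts. No member symbol was repeated, so summing rows changed nothing.

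Replicate numbers did not pair the libraries: deviations of same-numbered libraries correlated between -0.287 and 0.309, and 1 of 6 mild-hypo-OPC libraries was closest to its own number. With the replicate block, 572 genes were higher and 1471 lower, 2 members higher and 1 lower, and 3 and 23 pathway genes. The paired exact test of Slc7a11 to Gclc, at -0.89, then passed (adjusted p = 0.0469). Its unadjusted p of 0.03125 is the smallest that its 64 arrangements allow, and it uses a pairing that the libraries did not show. The unpaired exact permutation test of this pair passed without mild-hypo-OPC replicate 3 (-1.09, adjusted p = 0.0455).

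Genes called higher numbered 1136 with upper-quartile scaling, 5515 with library size only, 53 in replicates 1 to 3 only, 0 with the covariate and 414 when thinned. Genes called lower numbered 405, 343 and 43 with library size only, in replicates 1 to 3 and with the covariate. Members called higher were 6 with library size only, 1 in replicates 1 to 3, 1 in replicates 4 to 6, 0 with the covariate, 1 when thinned and 1 with the span trend removed; members called lower were 0, 0 and 0 with library size only, in replicates 1 to 3 and with the covariate. Pathway genes called higher were 25 with library size only, 1 with at least 10 counts in every library, 1 and 1 in either set of replicates, 0 with the covariate, 1 when thinned and 5 with the span trend removed; those called lower were 4, 6 and 0 with library size only, in replicates 1 to 3 and with the covariate. The cause of these differences was not tested.

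Signs turned as follows on the log2 scale. Nqo1: 0.077 (library size only) and 0.017 (covariate). Gclc: -0.0032 (limma-voom), -0.063 (replicates 4 to 6), -0.26 (covariate), -0.048 (span), and -0.024 to 0.072 with 1 library left out. Gclm: 0.037 (upper quartile), 0.39 (library size only), 0.029 (limma-voom), 0.0013 (no filter), 0.35 (replicates 1 to 3, against -0.46 in replicates 4 to 6), 0.28 (covariate), 0.064 (thinned), and -0.17 to 0.091 with 1 library left out. Sod2: 0.27 (library size only). Cat: 0.0038 (upper quartile), 0.37 (library size only), 0.066 (replicates 4 to 6) and 0.035 (thinned). Fth1: 0.0298 (library size only) and 0.015 (covariate). Taldo1: 0.074 (library size only) and 0.24 (covariate). With the covariate, Gpx1 was at 0.11, Glrx5 at 0.17 and Nfe2l2 at -0.66. Keap1: 0.0033 (upper quartile), 0.37 (library size only), 0.079 (covariate), 0.051 (span), and -0.098 to 0.00066 with 1 library left out. Bach1: -0.046 (replicates 1 to 3), and -0.049 to 0.22 with 1 library left out.

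For the ratios, replicates 1 to 3 or 4 to 6 alone allow no exact permutation p below 0.1; there Sod2 to Sod1 was 0.45 and 0.41, Hmox1 to Nqo1 1.10 and 0.88, and Cat to Sod1 0.42 and 0.65. Cat to Sod1 was 0.47 as a difference in medians and no longer passed (exact permutation test, adjusted p = 0.0714). Gclm to Gclc was 0.27 in replicates 1 to 3 and -0.38 in replicates 4 to 6. Srxn1 to Txnrd1 was -0.40 with 1 added to counts, -0.032 for medians and -0.12 in replicates 1 to 3. Leaving out 1 library gave 0.34 to 0.51 for Sod2 to Sod1, 0.44 to 0.63 for Cat to Sod1, -0.17 to 0.076 for Gclm to Gclc, -0.26 to 0.44 for Srxn1 to Txnrd1 and -1.09 to -0.63 for Slc7a11 to Gclc.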
